A study of Homo sapiens with 17 samples.

Results

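The 9 genes described here encode BMP ligands (BMP4 and BMP2), BMP receptors (BMPR1A and BMPR2), the inhibitory SMAD protein SMAD6, and the ID proteins ID1, ID2, ID3 and ID4. They were chosen by symbol, and each symbol matched 1 of the 58870 entries in the deposited table. MDA-MB-231, an established line from a triple-negative breast cancer whose cells look mesenchymal (basal B subtype), was grown in RPMI with 10% serum. It received 45 nM TRAIL, a TNF-family ligand that can trigger apoptosis through its death receptors. The dose was below the optimum, and the design text gives the aim as measuring living cells. RNA was collected at 0, 1, 3, 6, 12 and 24 h. The 17 libraries analysed here were 2 at 1 h and 3 at each other time. The protocol speaks of triplicates. All libraries carry 1 treatment label, TRAIL, including those at 0 h. No untreated culture was analysed at a later time, so the effect of TRAIL and that of time in culture cannot be told apart. The labels do not say whether replicates were separate cultures, so the p-values below measure the spread between these libraries, which may be technical.

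BMPs are secreted ligands that bring type I receptors such as BMPR1A together with type II receptors such as BMPR2. The active receptor phosphorylates SMAD1, SMAD5 and SMAD9, which enter the nucleus with SMAD4 and raise transcription of target genes. The ID genes are among the best known of these targets, and SMAD6 is a target that feeds back on the receptor. ID proteins carry a helix-loop-helix domain but no DNA-binding region, and they hold basic helix-loop-helix (bHLH) transcription factors away from DNA. In breast cancer cells ID1 and ID3 are known for their links to proliferation and invasion.

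Total counts per library ran from 13731520 to 19234924, and 15365 genes had enough counts to be tested. The libraries differed in how level depended on transcript length. This was measured as a length slope, the change in log2 CPM (counts scaled to a common library total), relative to the mean of all libraries, per doubling of transcript length. It ran from -0.136 to 0.134. Its mean was lowest at 3 h (-0.0956), followed by 1 h (-0.0669) and 0 h (-0.0357), and highest at 24 h (0.0931), above 6 h (0.0661) and 12 h (0.0167). The share of mitochondrial counts moved with time as well. It was 5.53% to 8.37% at 0 h, 7.65% to 9.71% at 1 h and 7.99% to 8.97% at 3 h. Later it was 3.97% to 5.45% at 6 h, 5.01% to 6.80% at 12 h and 3.66% to 4.14% at 24 h. The replicates of a time differed by a chi-square statistic of 3.44 to 12.3 per gene in 14 pairs. Replicates 2 and 3 at 6 h (1.57) and at 24 h (1.66) were closer, though still above sampling noise, and were kept as separate libraries. All 7 mesenchymal markers were detected, with VIM at a median of 3350 CPM. Among 7 luminal markers CDH1, ESR1 and PGR reached at most 16, 2 and 1 counts, whereas KRT19 stood at a median of 402 CPM and ERBB2 at 62.8 CPM. Among 7 markers of leukocytes, endothelium and fibroblasts, CD3E had 0 counts in every library and PTPRC and VWF reached at most 5. PECAM1 reached 68 counts, PDGFRB 78 and ACTA2 92.3, and of these 3 PECAM1 was called higher at 24 h (1.17 on the log2 scale, adjusted p = 0.00258, edgeR) and PDGFRB lower at 3 h (-0.77, adjusted p = 0.0195) and 6 h (-0.68, adjusted p = 0.0201), against 0 h. That list summed to 82.8 to 93.3 CPM at 0 h, 64.0 to 70.7 CPM at 3 h, 79.6 to 81.4 CPM at 6 h and 103.3 to 111.3 CPM at 24 h, of which CD68 made up a median of 74.4 CPM. The luminal list summed to 516 to 553 CPM at 0 h, 384 to 398 CPM at 6 h and 425 to 465 CPM at 24 h. The mesenchymal list summed to 7371 to 7700 CPM at 0 h, 8165 to 8361 CPM at 6 h and 6400 to 6502 CPM at 24 h. The part of these shifts in the results below was not tested.

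All 9 genes passed the filter on low counts, but they differed widely in level. Per kilobase of the longest annotated transcript, the median over the 17 libraries was 92.4 CPM for BMP4, 70.5 CPM for ID1 and 39.8 CPM for ID3. BMPR2 stood at 5.47 CPM per kilobase and BMPR1A at 2.78 CPM per kilobase. ID2 (0.836), BMP2 (0.352) and ID4 (0.193 CPM per kilobase) were near the lower limit of detection, and ID4 had 3 to 14 counts in a library. SMAD6 (0.772) was as low per kilobase of its transcript of 5198 bases, but had 33 to 93 counts in a library. BMP4, ID1 and ID3 thus had the highest levels per kilobase of the group. In total counts BMPR2 (17451) stood above ID3 (13406), and BMPR1A had 8191. The fold changes of ID2, ID4 and BMP2 rested on few counts.

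Level changed with time for 4 of the 9 genes, BMP4, BMPR1A, BMPR2 and SMAD6, by an edgeR quasi-likelihood F-test over all 6 times. Of all tested genes, 64.2% passed that test. Their adjusted p-values, over all tested genes by the Benjamini-Hochberg method, were 3.3e-08 for BMP4, 3.0e-04 for BMPR1A, 8.8e-04 for BMPR2 and 0.00525 for SMAD6. The ID genes and BMP2 did not pass, with adjusted p-values of 0.0585 for ID1, 0.0674 for ID2, 0.300 for ID3, 0.280 for ID4 and 0.113 for BMP2. Of 27 alternatives, ID1 passed in 8: DESeq2 (0.0439), no filter (0.00710), library size only (0.00511), the length and GC offset described below, with and without the block (6.6e-07 and 2.7e-07), and without 1 h replicate 2 (0.0467), 12 h replicate 2 (0.00583) or 24 h replicate 1 (0.0490). ID3 passed in 2, both with that offset (1.1e-04 and 1.7e-04), ID2 in 2, with library size only (0.0410) and without 0 h replicate 2 (0.0278), and BMP2 in 1, without 3 h replicate 2 (0.0408). A gene is called below when its adjusted p-value in edgeR is under 0.05.

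**Figure D1:**
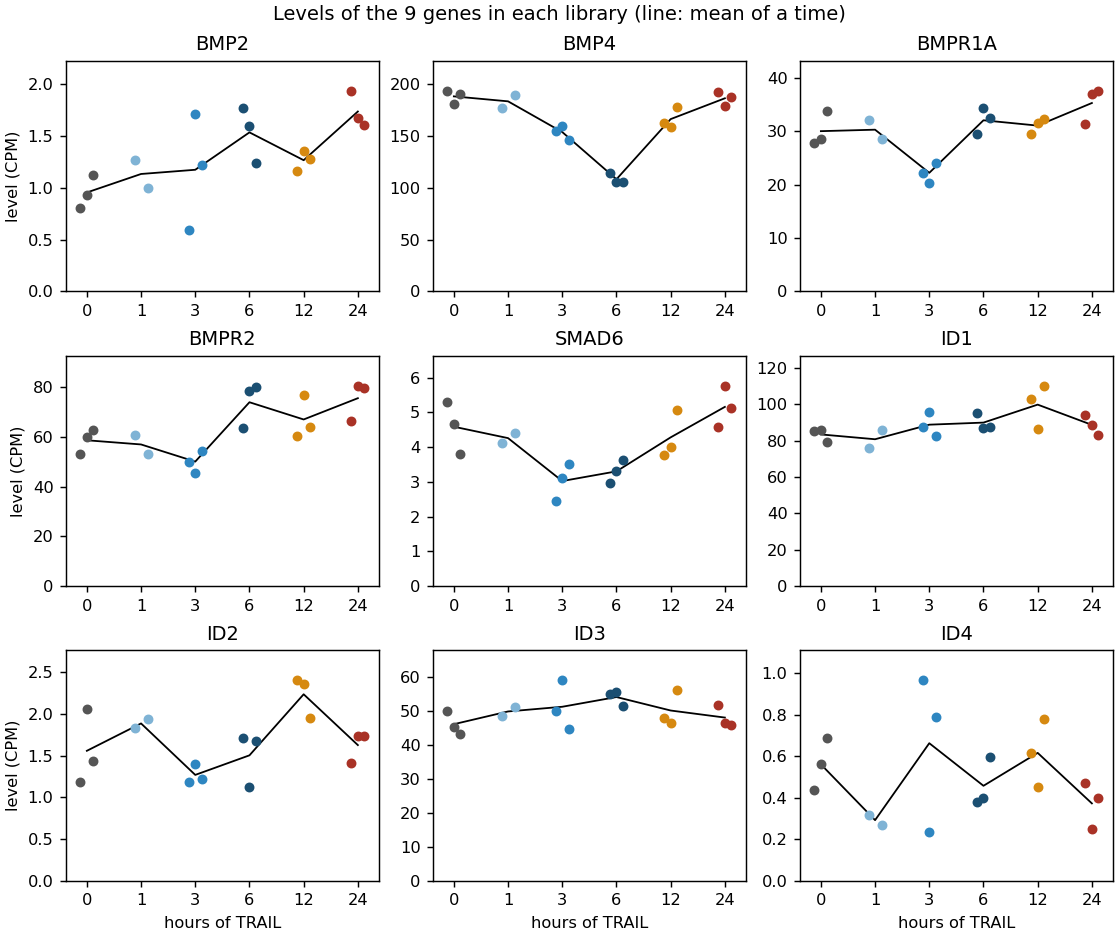
Level of the 9 genes in CPM (vertical axes on separate scales starting at 0) in each of 17 libraries against hours of TRAIL, with a line through the mean of each time. BMP4 dipped to 105 to 114 CPM at 6 h from 181 to 193 CPM at 0 h. Over all libraries ID1 ran from 75.8 to 110.3 CPM and ID3 from 43.0 to 58.9 CPM.

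BMP4, a ligand that signals through BMPR1A and BMPR2, fell and came back. The gene (ENSG00000125378) lies on the minus strand of chromosome 14 at 53949736 to 53958761 in GRCh38. Its level at 0 h was 193, 181 and 190 CPM, and at 1 h it was 177 and 190 CPM. It was 155, 160 and 146 CPM at 3 h and 114, 105 and 105 CPM at 6 h. The 3 h libraries lay below all at 0 h, and the 6 h libraries below all at 3 h. It was then 162, 159 and 178 CPM at 12 h and 193, 178 and 188 CPM at 24 h, where the range overlapped that at 0 h.

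The mean ± SD of BMP4 was 188 ± 6.38 CPM at 0 h (n = 3), 154 ± 7.15 CPM at 3 h (n = 3) and 108 ± 5.06 CPM at 6 h (n = 3). Against 0 h, BMP4 fell by 0.29 on the log2 scale at 3 h (SE 0.0594, adjusted p = 0.00238, edgeR). At 6 h it fell by 0.80 (SE 0.0599, adjusted p = 2.8e-08, edgeR), with a 95% interval from -0.92 to -0.67, so that its level fell by 42.5%. In bulk RNA, fewer cells that express a gene and less RNA of it per cell cannot be told apart. From 6 to 12 h BMP4 rose by 0.62 (adjusted p = 1.0e-06, edgeR). At 12 h it stood 0.18 lower than at 0 h on the log2 scale and missed the threshold (adjusted p = 0.0521, edgeR). That change passed in 6 of 17 alternatives, among them DESeq2 (adjusted p = 0.0265) and limma-voom (0.0489). At 24 h the difference from 0 h was -0.01 (95% interval -0.14 to 0.11). The changes at 3 h and 6 h against 0 h, from 3 to 6 h and from 6 to 12 h held under each of the alternatives run.

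The upstream sequences of BMP4, the gene with the smallest p-value over all times, and of ID1, the best known BMP target of the group, are shown to allow them to be compared. They are the bases from 250 to 51 before a RefSeq start (GRCh38.p14), 5′ to 3′ on the strand of the gene. BMP4 has 3 RefSeq starts, and the window shown, chr14:53955101-53955300 on the minus strand, precedes the most upstream of them. That of ID1 is chr20:31605039-31605238 on the plus strand. Capitals mark a match on either strand to a loose form of the NF-kB site (GGG and CC with 5 bases of any kind between them) or to GGCGCC, the GC-rich SMAD site.
BMP4: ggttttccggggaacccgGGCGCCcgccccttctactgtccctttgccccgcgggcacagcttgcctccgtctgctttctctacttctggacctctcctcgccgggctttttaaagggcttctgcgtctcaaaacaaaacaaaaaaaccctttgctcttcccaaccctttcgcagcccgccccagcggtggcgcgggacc
ID1: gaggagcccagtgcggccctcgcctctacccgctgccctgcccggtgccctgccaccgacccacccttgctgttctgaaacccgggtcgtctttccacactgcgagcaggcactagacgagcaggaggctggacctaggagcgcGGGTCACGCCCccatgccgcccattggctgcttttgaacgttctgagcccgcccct
The BMP4 window shown holds a GGCGCC match and no match to the NF-kB form. This depends on the start: of the other windows of BMP4, that at chr14:53953396-53953645 holds 3 matches to the NF-kB form and 0 to GGCGCC, and the remaining one holds neither. The ID1 window holds a pair of overlapping matches to the NF-kB form, joined in the capitals, and no GGCGCC match. Over 250 bases upstream on both strands, the NF-kB form was found in 54.4% and GGCGCC in 16.4% of 35116 RefSeq windows. The full BMP response element, GGCGCC followed after 5 bases by GTCT, was found in 0.077% of the windows and in 0 of the 10 windows of the 8 genes that had one. These are matches of letters in a short window and say nothing about binding.

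BMP2, a ligand closely related to BMP4, was measured with 8 to 33 counts per library. It was 0.809, 0.934 and 1.12 CPM at 0 h. At 6 h it was 1.77, 1.59 and 1.24 CPM, and at 24 h it was 1.93, 1.67 and 1.60 CPM. All libraries at 6 h and 24 h lay above those at 0 h. At 24 h BMP2 rose by 0.86 on the log2 scale (SE 0.289, adjusted p = 0.0256, edgeR). The call was lost in 6 of the alternatives, in DESeq2 (adjusted p = 0.0579), with the close pairs averaged (0.0503, edgeR) and, in edgeR, without 0 h replicate 1 (0.0998), 0 h replicate 2 (0.0631), 24 h replicate 1 (0.0684) or 24 h replicate 2 (0.0541). At 6 h the value was 0.67 (adjusted p = 0.0874, edgeR), which did not pass.

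BMPR1A encodes a type I receptor, the kinase that phosphorylates the SMADs. The gene lies on chromosome 10 at 86756601 to 86932838, plus strand, and its longest transcript has 11255 bases. Its counts were not whole in 9 libraries, which arises when RSEM divides fragments between genes. At 0 h it was 27.7, 28.5 and 33.7 CPM, and at 3 h it was 22.2, 20.3 and 24.1 CPM. The 3 h libraries lay below all at 0 h and below those of every other time. Against 0 h BMPR1A fell by 0.43 on the log2 scale (SE 0.0981, adjusted p = 0.00514, edgeR). From 3 to 6 h it rose by 0.53 (adjusted p = 3.5e-04, edgeR), to 29.4, 34.3 and 32.4 CPM. At 24 h it was 31.3, 37.0 and 37.5 CPM, a change of 0.23 from 0 h that did not pass (adjusted p = 0.0583, edgeR).

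BMPR2 encodes the type II receptor, which activates the type I receptor. It lies on chromosome 2 at 202376936 to 202567751, plus strand, and its longest transcript has 11461 bases. It was 53.1, 60.0 and 62.7 CPM at 0 h and 50.1, 45.6 and 54.4 CPM at 3 h. At 6 h it was 63.6, 78.2 and 79.9 CPM, above all at 0 h. At 12 h it was 60.1, 76.7 and 64.1 CPM, and at 24 h 66.2, 80.5 and 79.8 CPM. The spread within a time was wide, and replicate 1 was the lowest at 0, 6, 12 and 24 h. Against 0 h BMPR2 rose by 0.34 on the log2 scale at 6 h (SE 0.108, adjusted p = 0.0261, edgeR) and by 0.36 at 24 h (SE 0.108, adjusted p = 0.0144, edgeR). From 3 to 6 h it rose by 0.56 (adjusted p = 6.3e-04, edgeR).

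The level of BMPR2 moved with the length slope of the library. Over the 17 libraries Pearson's r was 0.986 and Spearman's rho 0.980, with a permutation p of 2e-05 for r, the smallest that 100000 resamples can give (adjusted over 9 genes, 9e-05). Without the 2 libraries farthest from the median slope r was 0.988, and for deviations from the mean of each time it was 0.979. The slope was measured over all genes of known length, these 9 included, and this relation was computed after the data had been seen. The permutation treated the 17 libraries as exchangeable, although the slope differed between times. Its p-values therefore cannot separate a relation with the slope from a shared change with time. How closely other long transcripts follow the slope was not computed. For BMPR1A r was 0.844 and rho 0.890 (permutation p adjusted over 9 genes, 9e-05 for r), and r for deviations from the time means was also 0.844. For BMP4 r was -0.28, with a permutation p of 0.509 adjusted over 9 genes, and for ID1 it was -0.06 (0.833). Their deviations from the time means ran against the slope, with r of -0.718 for BMP4 and -0.842 for ID1. The long receptor transcripts were thus highest in the libraries in which long transcripts in general were high.

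**Figure D2:**
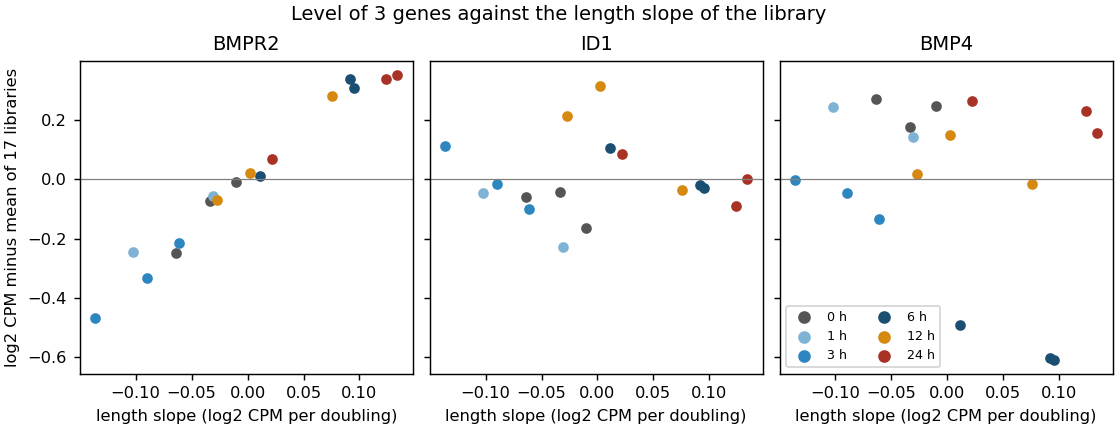
Level of BMPR2, ID1 and BMP4 in each of 17 libraries (vertical axis, log2 CPM minus the mean of the 17) against the length slope of the library (horizontal axis, log2 CPM per doubling of transcript length), coloured by time. BMPR2 rises along the slope (r = 0.986), and BMP4 at 6 h sits below the rest whether the slope is near 0 or near 0.1.

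An offset that takes out the dependence on transcript length and GC content in each library was applied as an alternative. It also takes out any true difference between times that goes with length or GC content. Since the length slope differed between times, the 2 cannot be told apart here. With it, BMPR2 at 6 h against 0 h was 0.10 on the log2 scale (adjusted p = 0.156, edgeR) and at 24 h 0.10 (adjusted p = 0.140, edgeR), and both calls were lost. Its rise from 3 to 6 h was 0.23 (adjusted p = 0.00171, edgeR), less than the 0.56 without the offset. BMPR1A kept its fall at 3 h with -0.35 (adjusted p = 4.4e-04, edgeR), its rise from 3 to 6 h was 0.23 (adjusted p = 0.00731, edgeR), and at 24 h it stood at -0.04 (adjusted p = 0.646, edgeR). BMP4 fell by 0.68 at 6 h (adjusted p = 3.1e-10, edgeR). Its change at 12 h, -0.13, passed (adjusted p = 0.0362, edgeR), as it did in DESeq2 and limma-voom. The fall of BMP4 and of BMPR1A at 3 h was therefore called under both scalings, and the rise of BMPR2 against 0 h only without the offset. Both calls of BMPR2 against 0 h were also lost without replicate 1 at 0 h (adjusted p = 0.121 at 6 h and 0.0797 at 24 h, edgeR). The call at 6 h was lost as well without 0 h replicate 2 (0.0508), 6 h replicate 3 (0.121) or 6 h replicate 2, and that at 24 h without 24 h replicate 2 (0.0674) or 24 h replicate 3 (0.0606). Averaging the close replicate pairs lost both calls too (adjusted p = 0.133 at 6 h and 0.0756 at 24 h, edgeR).

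SMAD6, an inhibitory SMAD that competes for the receptor and the signal SMADs, was lower at 3 h and 6 h. The gene lies on chromosome 15 at 66702228 to 66782848, plus strand, and had 33 to 93 counts per library. It was 5.29, 4.67 and 3.80 CPM at 0 h and 4.11 and 4.40 CPM at 1 h. At 3 h it was 2.45, 3.11 and 3.51 CPM, and at 6 h 2.97, 3.32 and 3.62 CPM. All 6 of those libraries lay below the 5 at 0 h and 1 h. It was 3.77, 4.01 and 5.05 CPM at 12 h and 4.57, 5.76 and 5.14 CPM at 24 h, and both times overlapped 0 h.

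Against 0 h SMAD6 fell by 0.60 on the log2 scale at 3 h (SE 0.177, adjusted p = 0.0245, edgeR) and by 0.47 at 6 h (SE 0.169, adjusted p = 0.0413, edgeR). The call at 3 h was lost when any of 4 libraries was left out: 0 h replicate 1 (adjusted p = 0.0883), 0 h replicate 2 (0.0699), 3 h replicate 1 (0.124) or 3 h replicate 2 (0.0623, all edgeR). The call at 6 h was lost in DESeq2 (adjusted p = 0.0842), in limma-voom (0.0511) and in 7 other alternatives, with an adjusted p of up to 0.192 without 0 h replicate 1 (edgeR). Leaving out 0 h replicate 2 or any one 6 h library was among them. With the length and GC offset the values were -0.55 at 3 h (adjusted p = 0.0225, edgeR) and -0.52 at 6 h (adjusted p = 0.0205, edgeR). The direction was the same under all alternatives at both times, and the size was imprecise.

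ID1, the ID gene most often used as a readout of BMP signalling, ran from 75.8 to 110.3 CPM over all libraries. These levels are without the length and GC offset, and values with it are given below. It lies on chromosome 20 at 31605283 to 31606515, plus strand, and had 1155 to 1986 counts per library. Its level was 85.2, 86.2 and 79.2 CPM at 0 h, 75.8 and 85.9 CPM at 1 h, and 87.7, 96.1 and 82.8 CPM at 3 h. At 6 h it was 95.5, 87.0 and 87.5 CPM, at 12 h 102.9, 86.5 and 110.3 CPM, and at 24 h 94.1, 88.7 and 83.4 CPM. Every 12 h library lay above those at 0 h, by a small margin for replicate 2, and the 24 h libraries overlapped them.

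At 12 h ID1 rose by 0.26 on the log2 scale (SE 0.0822, adjusted p = 0.0450, edgeR), and this call was lost in 8 of the alternatives, among them limma-voom (adjusted p = 0.0572). In edgeR it was lost without any one of the 0 h libraries (0.103, 0.0824 and 0.148 for replicates 1, 2 and 3), 12 h replicate 1 (0.123) or 12 h replicate 3 (0.197). At 6 h, where BMP4 was lowest, ID1 stood at 90.0 ± 4.80 CPM (SD, n = 3) against 83.5 ± 3.79 CPM at 0 h (SD, n = 3). That difference was 0.11 on the log2 scale, with a 95% interval from -0.06 to 0.28, and did not pass (adjusted p = 0.339, edgeR). The log2 change of BMP4 at that time was -0.80, and a relation between the ID1 and BMP4 values was not tested.

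ID3, a second ID protein that often accompanies ID1, lies on the minus strand of chromosome 1 at 23557918 to 23559794 and had 623 to 1010 counts per library. It was 49.8, 45.2 and 43.0 CPM at 0 h, and 55.0, 55.6 and 51.4 CPM at 6 h. The 6 h libraries were above those at 0 h, but the change of 0.23 did not pass (95% interval 0.04 to 0.42, adjusted p = 0.0662, edgeR). At 1, 3, 12 and 24 h its libraries overlapped those at 0 h, between 44.7 and 58.9 CPM.

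The short ID1 and ID3 transcripts (1233 and 1251 bases) shifted upwards at the later times once the length and GC offset was applied. ID1 then stood at 0.29 at 6 h (adjusted p = 2.1e-04, edgeR), 0.36 at 12 h (adjusted p = 3.8e-05) and 0.30 at 24 h (adjusted p = 1.2e-04) against 0 h on the log2 scale. ID3 stood at 0.40 at 6 h (adjusted p = 8.4e-05, edgeR), 0.21 at 12 h (adjusted p = 0.0294) and 0.25 at 24 h (adjusted p = 0.00480). All 6 of these values passed, against 1 of the 6 without the offset. At 3 h the values were small either way, and that of ID1 changed sign, from 0.09 to -0.01. From 3 to 6 h ID1 rose by 0.30 (adjusted p = 1.1e-04, edgeR) and ID3 by 0.35 (adjusted p = 2.3e-04, edgeR) with the offset, against 0.02 and 0.08 without it. Without the offset ID3 at 6 h also passed with no filter (0.23, adjusted p = 0.0331), with library size only (0.23, adjusted p = 0.0498) and with these groups fitted alone (0.22, adjusted p = 0.0279, all edgeR). Whether ID1 and ID3 were called thus depended on the offset and, for ID3 at 6 h, on the filter, the scaling and the libraries fitted as well. A fall of either gene at 6, 12 or 24 h was seen under neither.

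**Figure D3:**
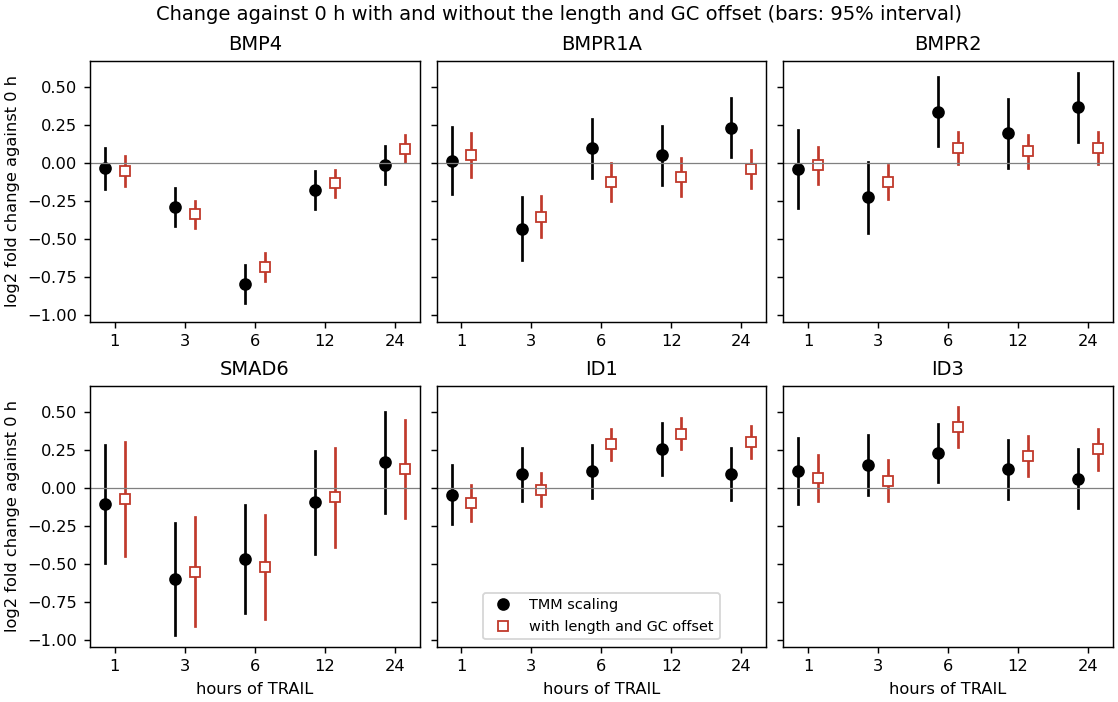
Log2 fold change against 0 h (vertical axis) of BMP4, BMPR1A, BMPR2, SMAD6, ID1 and ID3 at each later time (horizontal axis, hours of TRAIL), with 95% intervals as bars, for TMM scaling (filled circles) and with the length and GC offset (open squares). The dip of BMP4 at 6 h (-0.80 and -0.68) is seen under both, whereas the offset moves BMPR2 towards 0 and ID1 and ID3 upwards at 6, 12 and 24 h.

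ID2, an ID protein with a role in holding back differentiation, had 16 to 47 counts per library and lies on chromosome 2 at 8678845 to 8684453, plus strand. It was 1.18, 2.06 and 1.43 CPM at 0 h and 2.40, 2.36 and 1.94 CPM at 12 h. The ranges overlapped, and the change of 0.52 did not pass (adjusted p = 0.141, edgeR). ID4, an ID family member with few counts here, was 0.436, 0.561 and 0.685 CPM at 0 h and between 0.233 and 0.964 CPM over all libraries. It was called in 0 of the comparisons, and at this depth changes of ID4 were detectable only if large: its 95% interval at 24 h against 0 h ran from -1.55 to 0.40.

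Counted by time, the group was quiet at 1 h. None of the 9 genes was called against 0 h, beside 0.312% of all tested genes. For the 9 genes, 0 had an unadjusted p under 0.05 in edgeR, 0 were called by DESeq2, which gave 1 of them no adjusted p, and 0 by limma-voom. At 3 h 3 of 9 were called, all lower (BMP4, BMPR1A and SMAD6), beside 17.7% of all genes in either direction and 8.71% lower. The median log2 change of the 9 was -0.23, and that of all tested genes -0.0041. At 6 h 3 of 9 were called, BMP4 and SMAD6 lower and BMPR2 higher, beside 30.1% of all genes. At 12 h 1 of 9 was called (ID1), beside 12.4%, and at 24 h 2 of 9 (BMP2 and BMPR2, both higher), beside 35.1%. The shares at 6, 12 and 24 h were near the background. Medians of the 9 genes at 6, 12 and 24 h were 0.09, 0.12 and 0.09, and of all genes -0.02, -0.0032 and -0.0017.

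With the length and GC offset 3 of 9 were called at 3 h (25.3% of all genes), 4 at 6 h (29.8%), 3 at 12 h (16.2%) and 3 at 24 h (34.4%). It also gave 5 of 9 from 3 to 6 h (40.8%), 3 from 6 to 12 h (27.2%) and 6 in the test over all times (66.0%). Between consecutive times without the offset, 2 of 9 were called from 1 to 3 h, beside 5.73% of all genes. These were BMP4 (-0.25, adjusted p = 0.0260) and BMPR1A (-0.45, adjusted p = 0.0183, both edgeR), and both calls were lost in a fit of these groups alone (0.113 and 0.0619). The call of BMP4 was also lost without either 1 h library, 3 h replicate 1 or 3 h replicate 3, and that of BMPR1A without 1 h replicate 1, 3 h replicate 1 or 3 h replicate 2. From 3 to 6 h 3 of 9 were called, beside 43.2%: BMP4 fell by a further 0.51 (adjusted p = 1.0e-05, edgeR) while both receptors rose. From 6 to 12 h 1 of 9 was called, BMP4, beside 20.6%. From 12 to 24 h 0 of 9 were called by edgeR, beside 12.0%, with 1 at an unadjusted p under 0.05, 1 by DESeq2 and 0 by limma-voom.

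Other genes of the pathway were taken from lists by role that held 60 genes, of which 37 were tested. Against 0 h, 1 was called higher at 1 h and 0 lower, beside 0.260% and 0.0521% of all tested genes. At 3 h the counts were 6 higher and 5 lower, beside 9.04% and 8.71%. At 6 h 12 were called higher (16.9% of all genes) and 0 lower (13.2%). At 12 h 1 was called higher (5.96%) and 4 lower (6.48%). By 24 h the lower calls were in the majority, with 8 (17.1%) against 4 higher (18.0%). The median log2 change of the 37 was 0.19 at 6 h and -0.10 at 24 h, and that of all genes -0.02 and -0.0017. All list counts and medians, here and below, are without the length and GC offset, and were not made with it. Among genes called higher at 6 h, SMURF2 and SMAD5 lost their calls with the offset. RGMB, FSTL1, FSTL3, BHLHE40 and TCF12 kept theirs. The lists and the genes in them were chosen with earlier results of these data known.

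Among the secreted antagonists, which bind BMPs or related ligands outside the cell, 10 of 15 were tested. At 3 h 3 were called higher and 1 lower, beside 9.04% and 8.71% of all tested genes, and at 6 h 4 higher and 0 lower, beside 16.9% and 13.2%. At 12 h the counts were 1 higher and 3 lower, beside 5.96% and 6.48%, and at 24 h 2 higher and 4 lower, beside 18.0% and 17.1%. FST (follistatin, which binds activins and some BMPs) was 65.5, 66.7 and 63.4 CPM at 0 h, 110.6, 110.7 and 119.0 CPM at 3 h, and 48.8, 40.3 and 43.8 CPM at 24 h. The 3 times did not overlap. FST rose by 0.80 on the log2 scale at 3 h (adjusted p = 8.6e-08, edgeR) and fell by 0.60 at 12 h (adjusted p = 1.6e-05) and 0.56 at 24 h (adjusted p = 1.5e-05) against 0 h.

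NOG (noggin, which binds BMP4 and BMP2 and keeps them from their receptors) was 38.8, 37.1 and 34.2 CPM at 0 h, 51.6, 51.0 and 48.7 CPM at 3 h, and 28.5, 28.0 and 25.4 CPM at 24 h. Here too the 3 times did not overlap. NOG rose by 0.46 at 3 h (adjusted p = 0.00348, edgeR) and fell by 0.43 at 24 h (adjusted p = 0.00351), or by 0.27 with the length and GC offset (adjusted p = 0.0133). At 12 h it fell by 0.35 (adjusted p = 0.0295, edgeR), a call lost without 0 h replicate 1, 0 h replicate 2, 12 h replicate 1 or 12 h replicate 2. FSTL3, a relative of follistatin that binds activins, rose by 0.34 at 3 h and 0.31 at 6 h and fell by 0.42 at 12 h and 0.79 at 24 h (adjusted p from 4.8e-06 to 0.0102, edgeR). Its call at 3 h was lost without 3 h replicate 2 (0.0588) and that at 6 h without 0 h replicate 1 (0.0604). FSTL1, a more distant relative, rose by 0.28, 0.32 and 0.31 at 6, 12 and 24 h, and by 0.14, 0.22 and 0.13 with the offset. BMPER and CRIM1 of the same list were named after their values had been seen. BMPER was 8.96, 8.16 and 7.97 CPM at 0 h and 14.6, 13.9 and 12.7 CPM at 6 h. CRIM1 was 189, 224 and 231 CPM at 0 h and 260, 325 and 331 CPM at 6 h, all without the offset.

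Within the cell, SMAD7 is an inhibitory SMAD that acts on both TGF-beta and BMP receptors. It was 16.0, 20.3 and 19.9 CPM at 0 h, 26.8 and 26.7 CPM at 1 h, and 12.9, 12.5 and 13.1 CPM at 24 h. Both 1 h libraries lay above those at 0 h, and all 24 h libraries below them. SMAD7 rose by 0.51 on the log2 scale at 1 h (adjusted p = 0.00930, edgeR) and fell by 0.54 at 24 h (adjusted p = 1.9e-04). The call at 1 h was lost with library size only (adjusted p = 0.0522, edgeR) and with the 2 groups fitted alone (0.103). It was also lost without either 1 h library, which leaves 1 at that time. The log2 change was then 0.52 without replicate 1 and 0.51 without replicate 2. At 3 h, when SMAD6 was lower, SMAD7 was 20.8, 19.3 and 20.9 CPM and overlapped 0 h. Of the 6 other intracellular inhibitors, SMAD7 included, 4 were called higher at 6 h and 0 lower, beside 16.9% and 13.2% of all tested genes. At 1 h 1 was called higher (SMAD7), beside 0.260% of all tested genes, and at 3 h 1 (SMURF2), beside 9.04%. At 12 h 0 were called, beside 12.4%, and at 24 h 1 was called lower (SMAD7), beside 17.1%. The 4 called higher at 6 h were SMURF1 (0.39), SMURF2 (0.20), SKI (0.32) and SKIL (0.53). Of these, SMURF1, SKI and SKIL were named after their values had been seen. SMURF1 and SMURF2 are ubiquitin ligases that act on SMADs and receptors, and SKI and SKIL are repressors that bind SMADs. With the offset SMURF2 was 0.03 and lost its call, as it did without 0 h replicate 1, 6 h replicate 2 or 6 h replicate 3 and with the close pairs averaged (0.16, adjusted p = 0.107, edgeR), and the others were 0.30, 0.26 and 0.32.

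**Figure D4:**
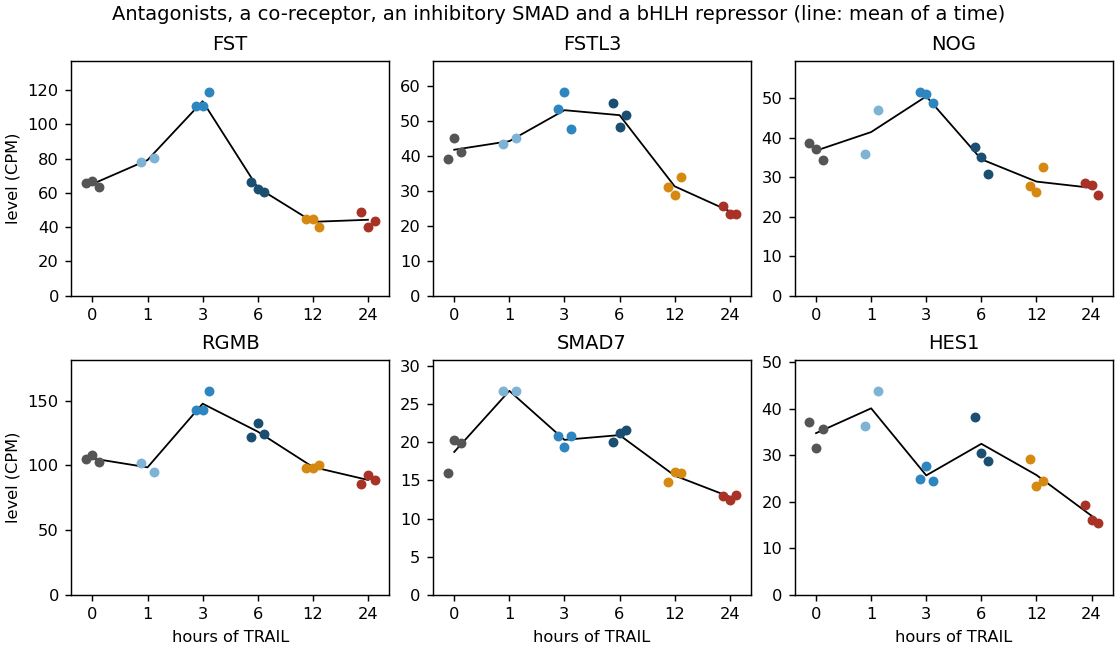
Level in CPM (vertical axes starting at 0) of FST, FSTL3, NOG, RGMB, SMAD7 and HES1 in each of 17 libraries against hours of TRAIL, with a line through the mean of each time. FST, FSTL3, NOG and RGMB were above their 0 h libraries at 3 h and below them at 24 h, and HES1 at 24 h (15.5 to 19.3 CPM) was below its 0 h range.

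Among receptors and co-receptors, 7 of 10 were tested. RGMB, a membrane co-receptor for BMPs, was 105.1, 107.8 and 102.8 CPM at 0 h, 142.3, 142.7 and 157.6 CPM at 3 h, and 85.4, 92.3 and 88.3 CPM at 24 h. It was highest at 3 h, when BMPR1A was lowest, and lowest at 24 h. RGMB rose by 0.49 at 3 h (adjusted p = 7.3e-06, edgeR) and 0.26 at 6 h (adjusted p = 0.00239), and fell by 0.25 at 24 h (adjusted p = 0.00289).

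Of the 4 signal SMADs, all tested, SMAD9 was lower at 3 h (-0.69, adjusted p = 0.0479, edgeR) and SMAD5 higher at 6 h (0.35, adjusted p = 0.0416). Both were named after their values had been seen, and both calls were lost with the length and GC offset (adjusted p = 0.0545 and 0.0600, edgeR). Of 11 other ligands 3 were tested and 0 were called against 0 h at any time. The share called of all tested genes ran from 0.312% at 1 h to 35.1% at 24 h. Of 7 further BMP targets 3 were tested, and the 1 called was ATOH8, a bHLH factor, higher at 24 h (0.66, adjusted p = 0.0113, edgeR). That was beside 18.0% of all tested genes called higher, and ATOH8 too was named after its value had been seen.

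The bHLH factors that ID proteins bind or that compete with them gave 4 tested genes of 7. HES1, a repressor best known as a Notch target, was 37.1, 31.5 and 35.6 CPM at 0 h and 19.3, 16.1 and 15.5 CPM at 24 h, without overlap. It fell by 1.03 on the log2 scale at 24 h (adjusted p = 7.6e-06, edgeR) and by 0.44 at both 3 h (adjusted p = 0.0146) and 12 h (adjusted p = 0.0173). The call at 3 h was lost without 0 h replicate 3 (0.0583) or 3 h replicate 1 (0.0590), and that at 12 h without 0 h replicate 1 (0.0751), 12 h replicate 2 (0.0999) or 12 h replicate 3 (0.0614). BHLHE40, a repressor of clock genes, rose by 0.38 at 3 h and 0.32 at 6 h and fell by 0.42 at 24 h (adjusted p = 6.2e-05, edgeR). TCF12, an E protein that ID proteins bind, was lower at 3 h (-0.36, adjusted p = 0.0208, edgeR) and higher at 6 h (0.33, adjusted p = 0.0182), and each call was lost in edgeR when any of 4 libraries was left out. Those were 0 h replicates 2 and 3 and 3 h replicates 1 and 2 at 3 h, and 0 h replicates 1 and 2 and 6 h replicates 2 and 3 at 6 h. The call at 6 h was also lost with the close pairs averaged (0.27, adjusted p = 0.108, edgeR).

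The genes whose log2 CPM was most like that of ID1 over the 17 libraries, of 11328 genes ranked, were ARF1 (Pearson's r 0.784), POLR2C (0.774) and LIMD2 (0.770). For ID3 they were ANKRD13D (0.806), ATF5 (0.782) and ADRM1 (0.775). For ID2 they were DLG4 (0.723), SLC26A11 (0.717) and VLDLR (0.707), of 11329 ranked. These are descriptions, since the libraries share the dependence on transcript length described above.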

How the data were processed

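The authors deposited 1 table of expected counts per gene (estimated fragment numbers, RSEM per the name of the table). Per the submitters' processing notes, cutadapt 1.18, STAR 2.7.0f and the build hg38 were used. The annotation release, RSEM version and strand setting were not given in the sources used here. Libraries were made with a stranded, paired-end mRNA kit, per the labels' protocols. Of the deposited values 10.8% were not whole, and they were rounded. Genes were filtered with filterByExpr (minimum count 10), leaving 15365, and scaled by TMM (factors 0.939 to 1.06) in edgeR 4.0.16 (R 4.3.3). A robust quasi-likelihood model with 1 mean per time was fitted to all 17 libraries, and p-values were adjusted over all 15365 genes by the Benjamini-Hochberg method. It was tested on simulated data. CPM are TMM-scaled, and levels are compared between genes only per kilobase.

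Alternatives in scaling and filter were RLE scaling, library size without TMM, no filter and a filter on mean count (10). Other models were DESeq2 (1.42.0), voom in limma 3.58.1, the groups compared alone and the replicate block. An offset per library by splines (5 degrees of freedom) of transcript length and GC content was used with and without the block. The 2 close replicate pairs were also averaged, and each library was left out in turn. Lengths, positions and GC content come from GENCODE 29, which covered 99.8% of tested genes, and upstream sequences from RefSeq (GRCh38.p14). All 9 members are described. Of the other pathway genes, those called in at least 2 comparisons against 0 h were named, up to 5 per list with the largest change. Outside this rule, SMURF1, SKI, SKIL, SMAD5, SMAD9, ATOH8, BMPER and CRIM1 were named after their values had been seen. Members and lists were chosen with earlier results of these data known.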

Additional observations from a re-analysis of the deposited data

How the results depend on the processing

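Over the 9 genes, 33 log2 changes gave 559 values under the alternatives. The 33 were changes called in the model described above or picked for report, not all changes of the 9 genes. Of these 463 kept direction and side of the threshold, 49 lost their call, 35 gained one and 12 changed sign. Of 475 values for other named pathway genes 445 were unchanged in this sense and 30 lost their call. For those genes only changes already called were included, so a call could not be gained. The counts of the 2 sets are therefore not comparable. The number of the 9 genes called against 0 h was 1 with the close pairs averaged and 1 to 3 with a library left out at 6 h, against 3. At 12 h, against 1, it was 2 in DESeq2, 3 with the offset with or without the block, 0 with pairs averaged and 0 to 1 with a library left out. At 24 h, against 2, it was 1 in DESeq2, 0 with pairs averaged and 0 to 3 with a library left out. Between 1 and 3 h, against 2, it was 0 with the groups alone and 0 to 1 with a library left out. It was 5 with the offset, with or without the block, against 3 between 3 and 6 h, and 3 against 1 between 6 and 12 h, where leaving out a library gave 1 to 2. Between 12 and 24 h, against 0, it was 1 with library size only, DESeq2 and the offset, with or without the block, and 0 to 1 with a library left out.

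Changes of sign were small. ID1 at 3 h became -0.0117 with the offset and -0.0118 with the block and offset. BMP4 at 24 h became 0.0603 with library size only, 0.0921 with the offset, 0.0924 with the block and offset, and -0.0416 to 0.0158 with a library left out. BMPR1A at 24 h became -0.0402 with the offset and -0.0387 with the block and offset. From 3 to 6 h, leaving out a library gave -0.0344 to 0.0752 for ID1 and -0.0146 to 0.189 for ID3. Their causes were not tested. Genes called over all genes ranged over the alternatives from 27 to 195 at 1 h, 1412 to 4025 at 3 h, 2532 to 4971 at 6 h, 724 to 2518 at 12 h and 3444 to 5798 at 24 h, all against 0 h. Between consecutive times they ranged from 271 to 2026 (1 to 3 h), 1670 to 4282 (6 to 12 h) and 452 to 2856 (12 to 24 h).

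Over all tested genes, same-numbered libraries shared little of their deviations. The correlation had a median of 0.0108 over 40 pairs (-0.199 to 0.211), and 7 of 17 libraries correlated best with their own number. In length slope, however, replicate 1 was the lowest at 0 h (-0.0636), 6 h (0.0111), 12 h (-0.0274) and 24 h (0.0215). With the replicate block, 0, 3, 3, 1 and 3 of the 9 genes were called at 1, 3, 6, 12 and 24 h against 0 h. The added call was BMPR1A at 24 h (0.23, adjusted p = 0.0361, edgeR). A library left out at 1 h leaves a lone library, assumed to vary like the other groups. With 3 to 14 counts for ID4 and 8 to 33 for BMP2, depth limits both.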
